A study of Homo sapiens with 6 samples.

Results

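The genes described here are 10 members of the EGFR system, taken from the 27738 genes that could be matched to the table: the receptors EGFR, ERBB2 and ERBB3, the ligands EREG, AREG, HBEGF, TGFA and BTC, and the inhibitors ERRFI1 and LRIG1. Each was named by its symbol and is represented by its RefSeq transcript accession with the highest base mean, which is the mean over libraries of reads divided by a size factor for each library. U87 is an established glioblastoma cell line of human origin, and its RNA was sequenced in 6 libraries, 3 of cells labelled EGFR+vIII TLR2 KO and 3 of cells labelled EGFR+vIII. Both groups therefore carry the label EGFR+vIII, for the epidermal growth factor receptor and its deletion mutant vIII, which signals without ligand, and they differ by the knockout of TLR2, a cell surface receptor of innate immunity. The sources used here do not give how EGFR and vIII were introduced, whether the knockout is 1 clone or whether replicate libraries stem from separate cultures. The p-values therefore measure a spread between libraries that may be technical.

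EGFR and its relatives ERBB2 and ERBB3 sit in the cell membrane and signal in pairs. EREG, AREG, HBEGF, TGFA and BTC are made as membrane-anchored precursors, cut from the cell surface by metalloproteases such as ADAM17 and ADAM10, and bind EGFR, with HBEGF, BTC and EREG also able to bind ERBB4. ERRFI1 and LRIG1 act in the opposite sense: ERRFI1 binds the active kinase domain inside the cell, and LRIG1 is a membrane protein that promotes removal of the receptor. EGFR amplification and the vIII deletion are frequent in glioblastoma.

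The values come from the authors' table of this comparison, which has a line for each accession and no column for a library. Fold changes are read as knockout over EGFR+vIII because the table's name puts the groups so. TLR2 cannot check this order, because all of its 8 accessions are listed at 0 in the authors' deposited table, and every direction below would turn if the order were the opposite. Base means summed to 11240272 reads per library over all accessions of the authors' deposited table. Of 9 markers fixed for a mesenchymal glioblastoma line, 0 were listed at 0 and 8 had a base mean of at least 100 in the authors' deposited table. Of the 9, 3 were higher in the knockout and 1 was lower at an adjusted p under 0.05. Their log2 fold changes were 1.01 for NES, 0.66 for CAV1, 0.20 for S100A6 and -0.29 for VIM. Among all accessions with a base mean of at least 100, 19.9% were higher and 23.1% lower. The astrocyte marker GFAP was at 0, as were all 4 neuronal and all 5 leucocyte markers. Each of these markers has several accessions. So has CD44, the mesenchymal marker that did not reach a base mean of 100, while ANXA2 and CAV1 have several and reached it. A marker listed at 0 is therefore not read here as absent from the cells. Whether the number of accessions sets these zeros was not tested. Of 3 endothelial markers, 2 reached a base mean of 100, the higher being KDR at 556. Of 4 markers of the oligodendrocyte lineage, OLIG1 and SOX10 were at 0 and OLIG2 had a base mean of 51.6, while MBP (210.0 reads per library, 6 accessions) fell by 2.71 in log2 fold change (DESeq2 adjusted p = 7.99e-42), per the authors' deposited table. The part of MBP and of the other changed markers in the results below was not tested.

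EREG, HBEGF and ERRFI1 were the 3 members that rose in the knockout, and 0 members fell. EREG and AREG are neighbours on chromosome 4, yet EREG had a base mean above 98.5% of tested accessions and AREG had 8 reads in all. The 250 bases before the transcription start of these 4 genes are shown to set the risen genes beside the neighbour with few reads, with matches to 7 promoter motifs in capitals. They come from RefSeq (GRCh38.p14) and read 5′ to 3′ on the strand of the gene: EREG at chr4:74364895-74365144 (plus strand), AREG at chr4:74444886-74445135 (plus strand), HBEGF at chr5:140346604-140346853 (minus strand) and ERRFI1 at chr1:8026310-8026559 (minus strand).
EREG: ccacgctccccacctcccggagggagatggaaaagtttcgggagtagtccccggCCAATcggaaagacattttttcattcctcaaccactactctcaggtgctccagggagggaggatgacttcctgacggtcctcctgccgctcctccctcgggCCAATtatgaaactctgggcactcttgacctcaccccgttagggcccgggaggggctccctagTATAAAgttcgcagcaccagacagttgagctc
AREG: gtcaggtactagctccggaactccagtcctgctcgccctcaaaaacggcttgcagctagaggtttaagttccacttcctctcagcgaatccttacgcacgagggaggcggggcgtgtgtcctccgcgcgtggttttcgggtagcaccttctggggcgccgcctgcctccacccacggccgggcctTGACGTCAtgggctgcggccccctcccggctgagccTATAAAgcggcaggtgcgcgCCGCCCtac
HBEGF: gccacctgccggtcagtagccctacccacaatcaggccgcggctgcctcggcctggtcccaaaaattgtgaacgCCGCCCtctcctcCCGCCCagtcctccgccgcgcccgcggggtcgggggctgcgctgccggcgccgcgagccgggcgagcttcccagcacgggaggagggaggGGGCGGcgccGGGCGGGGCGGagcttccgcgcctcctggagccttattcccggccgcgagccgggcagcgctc
ERRFI1: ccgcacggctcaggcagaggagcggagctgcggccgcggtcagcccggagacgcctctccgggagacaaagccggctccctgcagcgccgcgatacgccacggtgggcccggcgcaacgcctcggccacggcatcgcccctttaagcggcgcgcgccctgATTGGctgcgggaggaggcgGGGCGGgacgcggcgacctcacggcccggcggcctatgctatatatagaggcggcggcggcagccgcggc

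The motifs searched on both strands were the AP-1 site TGANTCA, the cyclic AMP response element TGACGTCA, the TATA box TATAAA, the CCAAT box CCAAT, the GC box GGGCGG, and the NF-kB site and the SRF-binding CArG box by their usual consensus. EREG held 1 TATA box, 32 bases before the start, and 2 CCAAT boxes. AREG held 1 TATA box, 29 bases before the start, 1 cyclic AMP response element, which reads alike on both strands, and 1 GC box. HBEGF held 5 GC boxes, of which 2 overlap each other by 1 base, and ERRFI1 held 1 CCAAT box and 1 GC box. No AP-1, NF-kB or CArG letters were present in these 4 windows. Among 35116 promoter windows of the same length, 10.7% held the TATA box, 32.0% the CCAAT box, 42.6% the GC box, 1.65% the cyclic AMP response element, 6.57% the AP-1 site, 9.96% the NF-kB site and 1.16% the CArG box. A match is a description of the letters and not a shown binding site.

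The question the comparison addresses is which genes differ between EGFR+vIII cells with and without TLR2. Among the ligands, EREG (epiregulin, chromosome 4, 74365145 to 74388749, GRCh38, 1 accession) had a base mean of 10843 in the authors' deposited table. EREG was 1.66-fold higher in the knockout, with a log2 fold change of 0.73 (SE 0.07, 95% interval 0.60 to 0.86) and a DESeq2 adjusted p of 5.71e-26 in the authors' deposited table. With 3 libraries on each side, that base mean and fold change correspond to levels near 13540 normalized reads in the knockout and 8147 in EGFR+vIII cells. In bulk RNA, fewer cells of a kind and less RNA per cell cannot be told apart. The first 197 bases of EREG overlap the annotated noncoding gene LOC105377276, and reads there could not be assigned by strand because the strandedness of the libraries is not given.

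HBEGF (heparin-binding EGF-like growth factor, chromosome 5, 140332843 to 140346603, 1 accession) had a base mean of 1365 in the authors' deposited table. HBEGF was 1.26-fold higher in the knockout, with a log2 fold change of 0.33 (SE 0.10, 95% interval 0.13 to 0.52, DESeq2 adjusted p = 0.00602) in the authors' deposited table. The corresponding levels are near 1520 normalized reads in the knockout and 1210 in EGFR+vIII cells. The rise of HBEGF was smaller than that of EREG, and their 95% intervals do not overlap. Across all tested accessions the Wald scores, each a log2 fold change divided by its SE, had a central spread of 1.75, where 1 is the spread of unchanged genes under the test. After scaling by that spread HBEGF no longer passed (adjusted p = 0.363), while EREG and ERRFI1 did (adjusted p = 0.0307 for ERRFI1), and 3.84% of all tested accessions were called higher in that setting.

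BTC (betacellulin, chromosome 4, 74744759 to 74794523) had 2 accessions, at a base mean of 15.7 and of 0 in the authors' deposited table. The log2 fold change of BTC was 0.48 (SE 0.38, 95% interval -0.27 to 1.23, adjusted p = 0.437, DESeq2) in the authors' deposited table. That interval reaches from 0.83-fold to 2.34-fold, so whether BTC differed was not detectable from the few reads listed. Deposited log2 fold changes at low reads may be drawn towards 0, so the interval may be too narrow. AREG (amphiregulin, chromosome 4, 74445136 to 74455005) had 1 accession with a base mean of 1.38 in the authors' deposited table, too low for an adjusted p. That value corresponds to 8 reads in all 6 libraries together, 6 on the knockout side of the fold change and 2 on the EGFR+vIII side, with 5 of the 8 in a single library. TGFA (transforming growth factor alpha, chromosome 2, 70447284 to 70553826) had 4 accessions, and all 4 were listed at 0 in the authors' deposited table.

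Abundance can be compared between members only per length, here as base mean per kilobase of the matched GENCODE 29 transcript. EREG stood at 2348 per kilobase, HBEGF at 572, BTC at 5.56 and AREG at 1.11, so that EREG was the most abundant ligand with reads and lay 4.10-fold above HBEGF. ERRFI1 stood at 3565 and LRIG1 at 324 on the same scale. Both groups enter these levels, and members with several accessions may be understated, which was not tested.

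**Figure D1:**
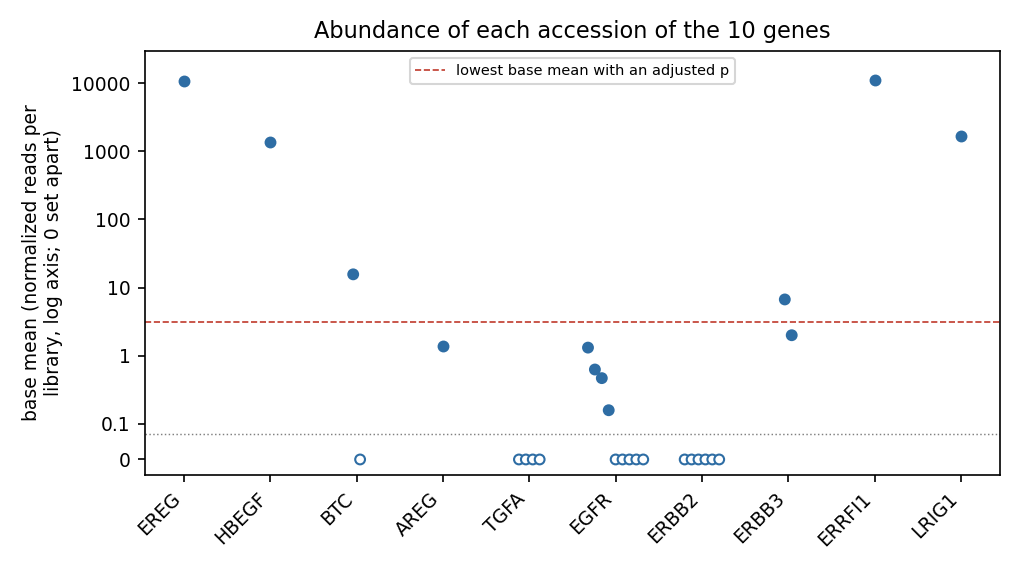
Base mean (normalized reads per library, averaged over both groups, log axis with 0 set apart) of every accession of the 10 genes; filled points have reads and open points are listed at 0. EREG, HBEGF, ERRFI1 and LRIG1, with 1 accession each, form the upper cluster. The dashed line is the lowest base mean that carries an adjusted p. All accessions of EGFR, ERBB2 and TGFA and the 1 accession of AREG lie under it.

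The receptors could hardly be measured in this table. EGFR itself (chromosome 7, 55019017 to 55211628) had 9 accessions, of which 5 were listed at 0, and the full-length form NM_005228 was among those 5 in the authors' deposited table. The other 4 accessions held 16 reads over all 6 libraries, 9 on the knockout side and 7 on the EGFR+vIII side. NM_201284, the EGFR accession with the highest base mean (1.32 in the authors' deposited table), had 8 reads in 2 libraries, both on the knockout side, and NM_201282 had 4 reads in 2 libraries on the EGFR+vIII side. The fold change of NM_201284 in the authors' deposited table, 0.27 (SE 0.21) on the log2 scale, has no adjusted p. Both groups are labelled as carrying EGFR and vIII, and the few listed reads are not read here as low expression. Of protein-coding genes with 5 or more accessions, 741 of 3062 (24.2%) had an adjusted p, against 4381 of 7927 (55.3%) with 1 accession. These are different genes, and whether the number of accessions sets the reads listed for EGFR was not tested. The antisense gene EGFR-AS1 overlaps EGFR over 9200 bases and had a base mean of 1.497 in the authors' deposited table.

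ERBB2 (chromosome 17, 39688094 to 39728658), the partner that has no ligand of its own, had 6 accessions, all listed at 0 in the authors' deposited table. ERBB3 (chromosome 12, 56080108 to 56103505), a partner with little kinase activity, had 2 accessions at a base mean of 6.70 and of 1.999 in the authors' deposited table. The accession of ERBB3 with more reads gave -0.46 in log2 fold change (SE 0.36, 95% interval -1.16 to 0.24, adjusted p = 0.425, DESeq2) in the authors' deposited table. The other, NM_001005915, held 12 reads in 3 libraries, 5 on the knockout side and 7 on the EGFR+vIII side. A change of ERBB3 was not detectable from the few reads listed, and its interval may be too narrow, as for BTC. Of the 5 members with several accessions, 2 had an adjusted p, against 4 of the 5 members with 1 accession.

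Both inhibitors were well measured. ERRFI1 (chromosome 1, 8011727 to 8026309), a feedback inhibitor of EGFR that is itself induced by EGFR signalling, had a base mean of 11067 in the authors' deposited table. ERRFI1 was 1.29-fold higher in the knockout, with a log2 fold change of 0.36 (SE 0.07, 95% interval 0.23 to 0.50) and a DESeq2 adjusted p of 1.26e-06 in the authors' deposited table. Its levels correspond to about 12453 normalized reads in the knockout and 9681 in EGFR+vIII cells. The interval of ERRFI1 overlaps that of HBEGF and lies under that of EREG. LRIG1 (chromosome 3, 66378797 to 66501121) had a base mean of 1708 in the authors' deposited table. Its value of -0.23 in log2 fold change (SE 0.11, 95% interval -0.44 to -0.02) in the authors' deposited table has an unadjusted p of 0.0328 and did not pass after adjustment (DESeq2 adjusted p = 0.113). The interval allows values from 0.736-fold to 0.987-fold. LRIG1 overlaps SLC25A26 over 131 bases, a gene with a base mean of 0.843 in the authors' deposited table.

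**Figure D2:**
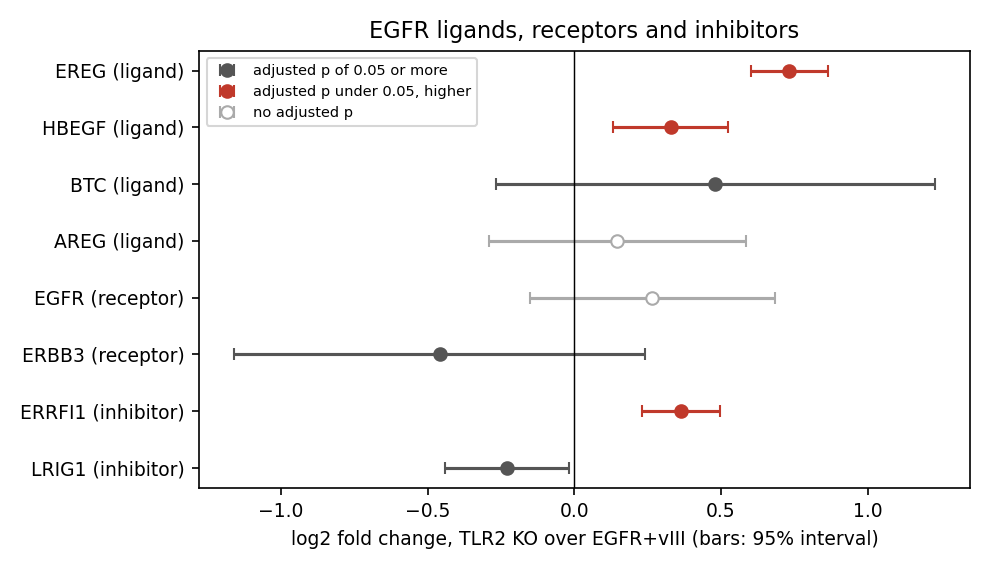
Log2 fold change (knockout over EGFR+vIII) of the 8 members with reads, with 95% intervals from the deposited SE, grouped as ligands, receptors and inhibitors. EREG, HBEGF and ERRFI1 lie to the right of 0, LRIG1 lies to the left without passing adjustment, and the open points of AREG and EGFR have no adjusted p.

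Of the 10 members, 6 had an adjusted p, 3 were called higher and 0 lower, with a median log2 fold change of 0.35. Among all 10303 tested accessions of the authors' deposited table, 11.6% were called higher and 11.9% lower, with a median of 0.02. Among the 4308 accessions with a base mean of at least 100, 19.9% were called higher and 23.1% lower. All 3 called members belong to the 4 members above that base mean, EREG, HBEGF, ERRFI1 and LRIG1. The members were chosen with earlier results known, and the count describes them without a test. A change of more than 1.5-fold was shown for 0 of the 3 by a test against that size, in which EREG had an adjusted p of 0.487 and HBEGF and ERRFI1 of 1. Over all tested accessions 1.92% were called higher by that test.

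**Figure D3:**
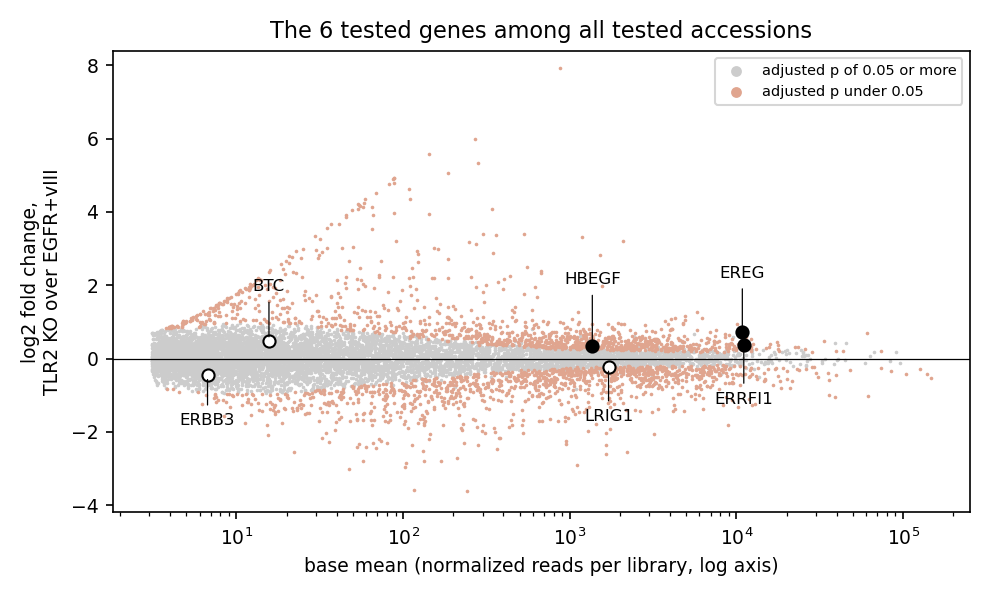
Log2 fold change (knockout over EGFR+vIII) against base mean (normalized reads per library, log axis) for the 10303 tested accessions, with the 6 tested members labelled; filled black points were called higher, open points were not called. EREG and ERRFI1 lie at the abundant end, and BTC and ERBB3 lie where few accessions pass.

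EREG, AREG, BTC and the related ligand EPGN lie side by side on chromosome 4, next to genes of CXC chemokines. From the start of EREG, EPGN begins 56.7 kb before it, AREG 79.99 kb after it and BTC 380 kb after it. EPGN was listed at 0 in the authors' deposited table. Of 7 tested genes that start within 1 Mb of EREG, 5 were higher, 1 was lower and BTC was not called, with a median log2 fold change of 1.07. The 5 higher genes, named after their values were seen, were the neutrophil attractants CXCL8 (1.96), CXCL5 (4.15), CXCL3 (1.23) and CXCL2 (1.07) and the folate enzyme MTHFD2L (0.62), as log2 fold changes in the authors' deposited table. PARM1 was lower, at -2.02 in the same table. Over 32 tested genes within 5 Mb the median was 0.15, with 9 higher and 8 lower. The shares over all tested accessions were 11.6% higher and 11.9% lower. Relative to the 5 Mb median the log2 fold change of EREG was 0.59 and remained called. Relative to the 1 Mb median it was -0.34, so EREG rose by less than that median. Whether the rise of EREG is tied to that of its neighbours was not tested. Around HBEGF and ERRFI1 the medians within 5 Mb were 0.03 and 0.05, over 66 and 54 tested genes.

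**Figure D4:**
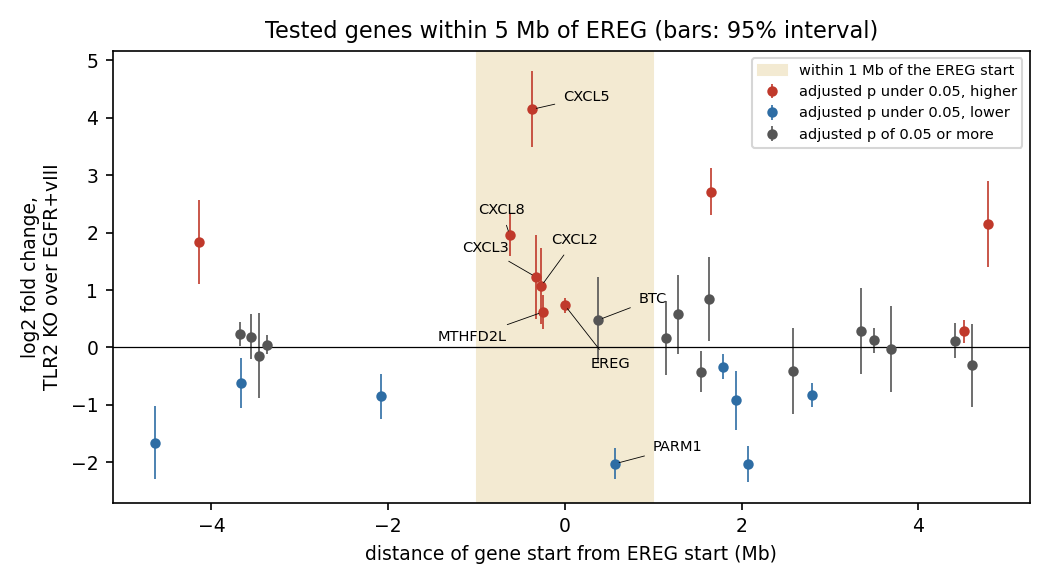
Log2 fold change (knockout over EGFR+vIII, with 95% intervals) of the tested genes that start within 5 Mb of EREG, against distance in Mb. Inside the shaded 1 Mb on each side, 4 CXC chemokine genes, MTHFD2L and EREG are higher and PARM1 is lower.

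The genes around the receptor were read from 7 further lists, chosen with earlier results of these data known and described by counts only. Their counts stand against 11.6% higher and 11.9% lower over all tested accessions and, at a base mean of at least 100, against 19.9% and 23.1%. As for EGFR, few or no listed reads for a gene of these lists are not read here as low expression. Of the other ERBB receptors and ligands, ERBB4, EGF, EPGN, NRG1, NRG2 and NRG3 were listed at 0 in the authors' deposited table. NRG4, a ligand of ERBB4, had a base mean of 8.18 and a log2 fold change of -0.42 (SE 0.38, DESeq2 adjusted p = 0.514) in the authors' deposited table.

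Among 15 genes that release or carry the ligands, 9 were tested, 2 rose and 2 fell, with a median log2 fold change of 0.03. The 4 were among 7 with a base mean of at least 100, where 43% of all accessions were called in either direction. TIMP3, an inhibitor of ADAM17 and other metalloproteases, was 9.17-fold higher in the knockout (log2 fold change 3.20, SE 0.09) in the authors' deposited table. ADAM17, the main sheddase of EREG, AREG, HBEGF and TGFA, was higher by 0.28 (SE 0.08, adjusted p = 0.00413, DESeq2) in the authors' deposited table. RHBDF1 (iRhom1), which matures ADAM17, fell by 0.89 (SE 0.12) and TMED10, a cargo receptor of the secretory pathway, fell by 0.40 (SE 0.07) in the authors' deposited log2 values. ADAM10, the main sheddase of BTC, had -0.49 as its log2 fold change (SE 0.21, DESeq2 adjusted p = 0.0829) in the authors' deposited table, and passed in 1 of the settings tried, the one that kept accessions of base mean 100 or more (adjusted p = 0.0465). RHBDF2 (iRhom2) had a base mean of 0.807 and no adjusted p. ADAM17 and its inhibitor TIMP3 were thus both higher, by unequal amounts.

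Of 21 inhibitors and phosphatases that act near the receptor, 11 were tested, 2 rose and 3 fell (median 0.14). The 5 called were among 6 with a base mean of at least 100, where the share over all accessions was 43%. SPRED1 and SPRY2, which restrain the RAS-MAPK branch, were lower, with log2 fold changes of -0.44 (SE 0.07) and -0.37 (SE 0.12) in the authors' deposited table. SOCS5, which promotes EGFR degradation, had -0.72 (SE 0.24) and was lower, on 101 reads per library in the same table. SOCS3 (0.27, SE 0.09) and the receptor phosphatase PTPRJ (0.27, SE 0.09) were higher in log2 fold change in the authors' deposited table. SPRY2 and SOCS5 have several accessions, and neither passed when the accessions were averaged (adjusted p = 0.0861 and 0.0775). SOCS3 did not pass relative to neighbouring genes (adjusted p = 0.103). CBL, a ubiquitin ligase that marks EGFR for degradation, had 0.14 (SE 0.09, adjusted p = 0.287, DESeq2), and the LRIG1 relative LRIG3 had -0.19 (SE 0.38) in the authors' deposited table. LRIG2 and SPRY4 were listed at 0 and CBLB stood at a base mean of 0.349 without an adjusted p, per the authors' deposited table. Of 18 endocytosis and sorting genes 10 were tested, and RAB11A, a GTPase of recycling endosomes, was the 1 that fell, by 0.82 (SE 0.29) in the authors' deposited log2 values. The share lower over all tested accessions was 11.9%. Relative to neighbouring genes 3 of this list were lower, and with scaled scores 0.

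Of 23 adaptors and enzymes that bind the active receptor, 11 were tested, 1 rose and 6 fell, with a median log2 fold change of -0.24. Of these 11, 9 had a base mean of at least 100, and the 7 called were among them, 1 higher and 6 lower, where the shares over all accessions were 19.9% higher and 23.1% lower. SHC3, an adaptor of the SHC family, had the largest fall of the 6, by 0.68 (SE 0.08) in the authors' deposited log2 values. The RAS exchange factors SOS1 (-0.25, SE 0.08) and SOS2 (-0.38, SE 0.10) were lower in log2 fold change in the authors' deposited table. The catalytic PI3-kinase subunits PIK3CA (-0.31, SE 0.08) and PIK3CB (-0.37, SE 0.10) and the adaptor CRKL (-0.24, SE 0.08) were lower too in the authors' deposited table. VAV3, an exchange factor of the VAV family, was 2.81-fold higher (log2 fold change 1.49, SE 0.19) in the authors' deposited table. GRB2 (0.09, SE 0.38), which links EGFR to SOS proteins, rests on a base mean of 6.91, and SHC1 was listed at 0 in the authors' deposited table. Relative to neighbouring genes, SOS1 (adjusted p = 0.258) and CRKL (0.823) did not pass. 

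Transcripts that EGFR-MAPK signalling induces went both ways: of 28, 19 were tested, 7 rose and 7 fell (median -0.10). The 14 called were among 17 with a base mean of at least 100, where 43% of all accessions were called in either direction. SPRY2 and SPRY4 stand both in this list and among the inhibitors, so the fall of SPRY2 is counted in each. Besides CXCL8, the largest rises were those of VGF (0.96, SE 0.20), the ERK phosphatase DUSP5 (0.96, SE 0.11) and FOS (0.74, SE 0.19) in log2 fold change in the authors' deposited table. The largest falls were those of DUSP4 (-1.06, SE 0.12), PHLDA1 (-0.59, SE 0.07), the ERK phosphatase DUSP6 (-0.57, SE 0.10) and FOSL2 (-0.43, SE 0.10) in the authors' deposited table. EGR1, an immediate early transcription factor, was higher by 0.44 (SE 0.15, DESeq2 adjusted p = 0.0222) in the authors' deposited table, a call not kept relative to neighbouring genes (adjusted p = 0.114). FOSL1 was listed at 0. Of 21 other receptor tyrosine kinases, 6 were tested and 2 rose, against 11.6% higher over all tested accessions: ROR1 (2.20, SE 0.21) and EPHA2 (1.26, SE 0.30), in log2 fold change in the authors' deposited table. ROR1 was at 1.45 when its 2 accessions were averaged, and remained called. EPHA2 rests on a base mean of 50.8. PDGFRA had 0.71 (SE 0.38, adjusted p = 0.192, DESeq2), and MET (base mean 0.174) and AXL (0.476) carry none, per the authors' deposited table. MET has 4 accessions and AXL has 3, and their few reads are not read here as low expression.

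Of 35 genes called among the members and the 7 lists, each counted once, 15 stayed called after scaling the scores by their central spread. They were EREG, ERRFI1, RHBDF1, TIMP3, TMED10, SPRED1, SHC3, VAV3, IER2, DUSP4, DUSP5, DUSP6, PHLDA1, CXCL8 and ROR1, and the other 20 lost their calls, among them HBEGF and ADAM17. A change of more than 1.5-fold was shown for 6 of the 35: TIMP3, VAV3, DUSP4, DUSP5, CXCL8 and ROR1.

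**Figure D5:**
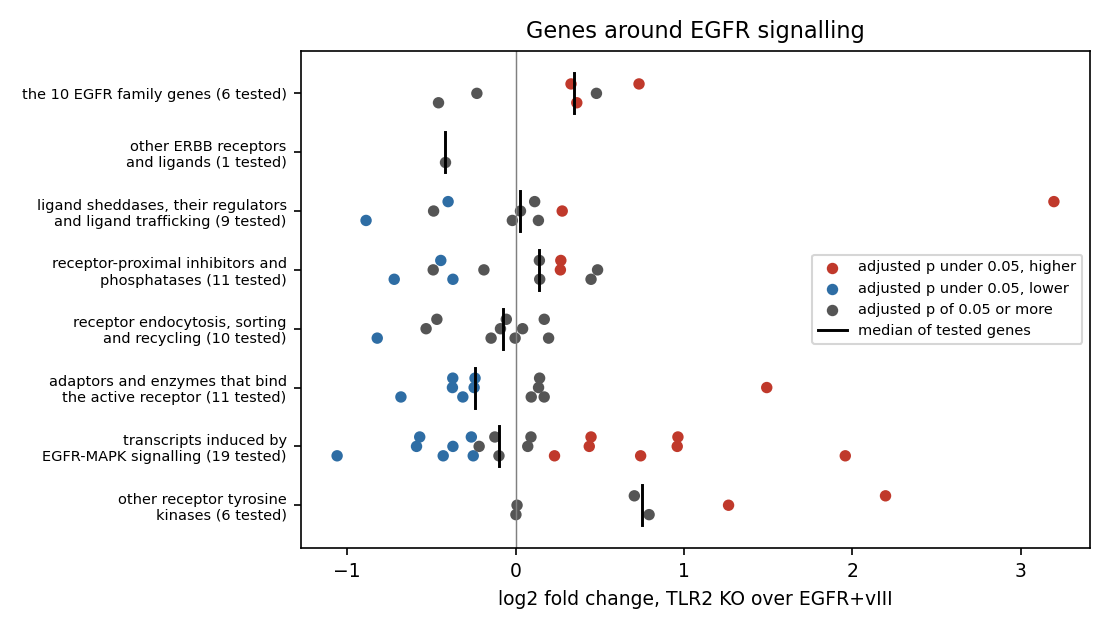
Log2 fold change (knockout over EGFR+vIII) of every tested gene of the 10 members and of the 7 further lists, 1 point per gene, with the median of each list as a black line. The adaptors and enzymes hold 6 lower genes and 1 higher gene, the induced transcripts 7 of each, and TIMP3 is the far right point of the sheddase list.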

How the data were processed

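RNA of U87 cells was sequenced in 3 libraries labelled EGFR+vIII TLR2 KO and 3 labelled EGFR+vIII. The submitters' processing notes name STAR, DESeq2 and hg38 and give no versions. The sources used here do not name the counter or annotation. Per the file headers, the authors deposited a base mean per accession, used here as a signal of abundance, a log2 fold change with its SE on the log2 scale, a Wald score, a p-value and an adjusted p. The deposited SE stays small at low reads, so log2 fold changes there may be drawn towards 0. The deposited table has no values per library, so the count test named in the design could not be run and the authors' adjusted p under 0.05 was used, adjusted over 10303 accessions.

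Accessions were matched to a RefSeq gene table (GRCh38.p14, the build of hg38), with 98.8% matched. The 6 smallest base means equal 1 read in 1 library (size factors 0.928 to 1.07), and whole reads were solved for the lowest accessions within 2e-07, each with 1 solution; their side follows the sign of the deposited fold change and was not matched to a labelled library. Levels per group were computed from base mean and fold change. Intervals are at 95% from the deposited SE, and at low reads they may be too narrow. The members and lists were chosen with earlier results of these data known. Genes named are all members, fixed genes, and per list every called gene, or the 4 largest in each direction where more than 8 passed. Alternatives were a 1.5-fold null, scores scaled by their central spread, no filter or a base mean of at least 100, a median of 0, neighbours within 5 Mb, 1 accession per gene and an inverse-variance mean over accessions. The computations used Python 3.11.15, pandas 2.3.3 and SciPy 1.17.1 and were tested on simulated data.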

Additional observations from a re-analysis of the deposited data

How the results depend on the processing

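EREG, HBEGF and ERRFI1 kept their direction with a median of 0 and relative to neighbours within 5 Mb. The other alternatives reuse the deposited log2 fold change of these genes with 1 accession each, so they could not change its direction. With a null of 1.5-fold, EREG (0.73), HBEGF (0.33) and ERRFI1 (0.36 on the log2 scale) lost their calls, leaving 0 members higher. With scaled scores HBEGF (0.33) lost its call. The calls of BTC, ERBB3 and LRIG1 did not change in the alternatives that tested them. Under the 1.5-fold null the number higher was 1 for ligand release genes, 0 for inhibitors, 2 for induced transcripts and 1 for other kinases, and the number lower was 0 for ligand release genes, inhibitors, endocytosis genes and adaptors and 1 for induced transcripts. With scaled scores the number higher was 1 for ligand release genes, 0 for inhibitors, 3 for induced transcripts and 1 for other kinases, and the number lower was 1 for inhibitors, 0 for endocytosis genes, 1 for adaptors and 3 for induced transcripts. Relative to neighbours, inhibitors had 1 higher and endocytosis genes 3 lower. Averaged over accessions, inhibitors had 1 lower. At a base mean of at least 100, other kinases had 1 higher, because EPHA2 (base mean 50.8) was not tested there. Ligand release genes had 3 lower, with ADAM10 added (adjusted p = 0.0465). Endocytosis genes kept 1 lower, with EPS15L1 in place of RAB11A. The cause of these moves was not tested, except that this last filter removes accessions under that base mean and adjusts over fewer. Of 35 genes called in all lists, 6 stayed called under the 1.5-fold null and 15 with scaled scores. Over all accessions, 408 passed the 1.5-fold null and 890 the scaled scores, against 2417. No replicate could be left out, and no paired analysis was possible because the table has no value per library. Few or no reads are listed for EGFR, ERBB2, ERBB3, AREG, TGFA and BTC. AREG has 1 accession and the others have several. Whether low expression, depth or, for the others, the number of accessions sets this was not tested.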
